A study of Mus musculus with 4 samples.

Results

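The proteases and inhibitors described here are the matrix metalloproteinases (MMPs), the tissue inhibitors of metalloproteinases (TIMPs), the ADAM and ADAMTS proteases and the ADAMTS-like proteins. They were taken as every gene probe outside the controls whose gene name begins with Mmp, Timp, Adam, Adamts or Adamtsl and goes on with a number, which gave 121 of the 40628 gene probes and 80 of the 29353 genes on the array. The 80 genes were 22 MMPs, 4 TIMPs, 19 ADAMTS, 5 ADAMTS-like and 30 ADAM genes, and no measured value entered that choice. The arrays measured total RNA of C3H10T1/2, a line of mouse embryo fibroblasts that had been transformed chemically, either exposed to phorone at 2 mM (2 arrays) or left unexposed (control, 2 arrays). Phorone is an unsaturated ketone that depletes glutathione. Both groups had been transformed in the same way: 3-methylcholanthrene at 2.5 µg/ml for 2 days, normal medium for 4 days, the phorbol ester TPA at 100 ng/ml for 2 weeks, and normal medium for a further 4 weeks. How long the cells were exposed and in which vehicle is not given in the sources used here. Nothing in the labels says whether replicates were separate cultures, and p-values therefore measure the spread between the samples alone, a spread that may be technical.

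MMPs, ADAMs and ADAMTS proteases share a catalytic site that holds a zinc ion. MMPs cut collagens and other matrix proteins, ADAMs sit in the cell membrane and release the outer parts of membrane proteins, and ADAMTS proteases are secreted and cut proteoglycans, procollagens and other matrix proteins. TIMPs block the active site, and fibroblasts are a main source of several members of each family and of the matrix that they cut.

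Levels are log2 signals relative to the 75th percentile of each array, and a level is only compared between arrays for the same probe. A probe counts as measured where 1 group or both had it well above background, by the scanner software's call, on each of its 2 arrays. On this rule 41 of the 80 genes were measured (51.25%), against 17031 of the 29314 genes that kept a probe (58.1%). In all, 33 genes were well above background on all 4 arrays and 2 (Adam4, Adam6b) on 3. Both control arrays and no phorone array showed 6 genes: Mmp3, Mmp27, Mmp15, Adamts6, Adamts12 and Adamtsl1. The reverse pattern, both phorone arrays and no control array, was found for 0 members. Over all 29314 genes, 530 showed the control-only pattern and 233 the reverse. Another 6 genes were seen on 1 or 2 arrays without filling either pair, and 33 on no array. Counted by probe, 51 and 47 of the 121 were well above background on the phorone arrays (42.15% and 38.84%), against 57 and 57 on the control arrays (47.11% each). Over all gene probes the shares were 59.08% and 58.13% on the phorone arrays, against 59.56% and 59.76% on the control arrays. Measured genes made up 10 of 22 MMPs, 3 of 4 TIMPs, 11 of 19 ADAMTS, 4 of 5 ADAMTS-like and 13 of 30 ADAM genes.

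**Figure D1:**
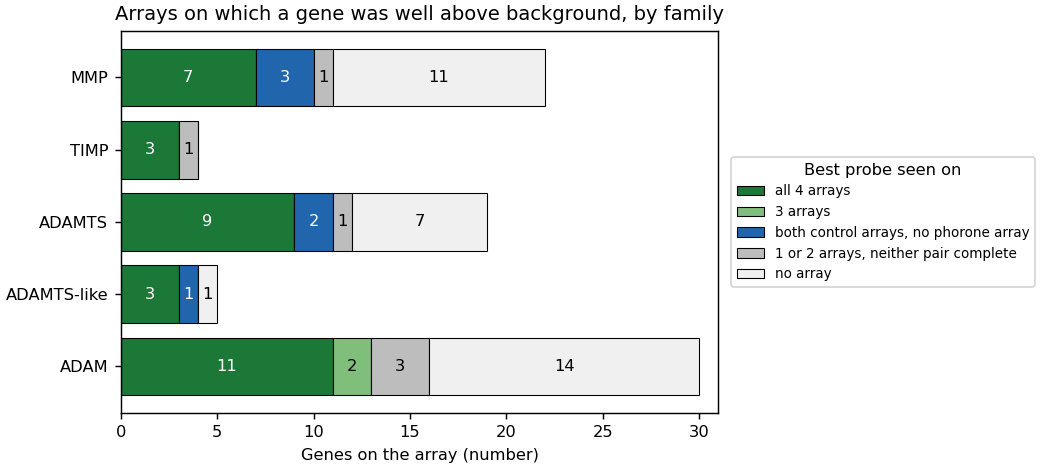
Number of genes of each family (horizontal axis) by the arrays on which the best probe of the gene was well above background. The 6 genes seen on both control arrays and on no phorone array are 3 MMPs, 2 ADAMTS genes and 1 ADAMTS-like gene.

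Most measured members were lower in phorone-exposed cells. Limma called 5 members higher and 29 lower, and 7 were not called, at an adjusted p below 0.05 over all 17031 genes, where 45.5% of genes were called, 24.3% higher and 21.3% lower. Called changes of at least 2-fold were found in 1 member upward and 22 members downward, against 8.03% and 12.0% of all genes. These counts rest on fitted values, and Mmp15, one of the 22, was bounded at only 1.56-fold. The levels of the 2 groups did not overlap for 37 of the 41 measured members, against 77.9% of all genes. The median log2 fold change, phorone minus control, was -1.45 over the 41 measured members and 0.08 over all genes, and -1.05 with genes unseen on the phorone arrays set at their bound. Over the 33 members seen on all 4 arrays, 5 rose and 23 fell (median -1.45), while the 15697 genes of that kind were called higher in 24.4% and lower in 19.2% with a median of 0.10. Members that pass the rule through the control arrays alone had to be lower, so the counts describe measured members and not the families as a whole. By family the counts of higher, lower and not called were 0, 8 and 2 for MMPs, 1, 2 and 0 for TIMPs, 0, 10 and 1 for ADAMTS, 0, 4 and 0 for ADAMTS-like, and 4, 5 and 4 for ADAMs. In cultured cells measured in bulk, fewer cells of a type and less RNA per cell cannot be told apart.

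**Figure D2:**
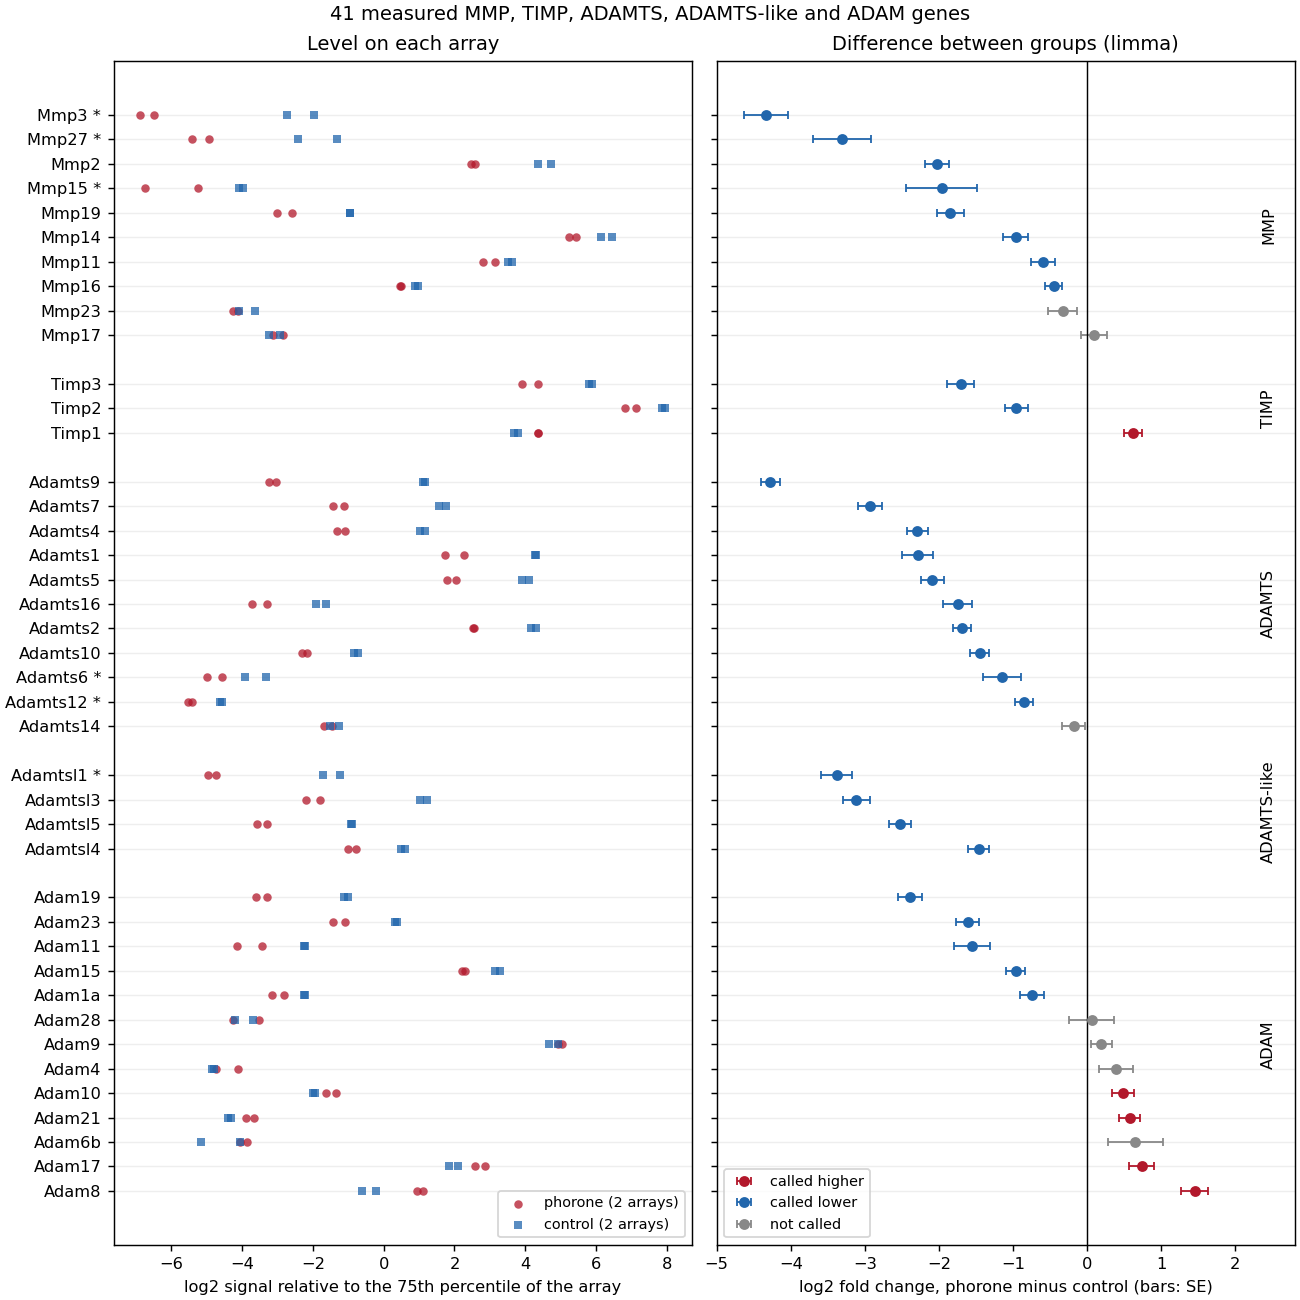
Levels on each array (left, log2 signal relative to the 75th percentile) and log2 fold changes with their SE (right, limma) for the 41 measured genes by family, with an asterisk for genes on no phorone array, whose fitted value is not a bound. ADAMTS and ADAMTS-like genes lie on the lower side throughout, while ADAM genes lie on both sides of 0.

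Among the MMPs, the stromelysin Mmp3, which cuts proteoglycans and other matrix proteins and activates other MMPs, had levels of -6.88 and -6.49 in phorone cells, against -1.97 and -2.73 in control cells. Neither phorone array was well above background, so only a bound holds, and Mmp3 was at least 4.99-fold lower with phorone (limma adjusted p = 0.000789). Every such bound sets the control mean against, per phorone array, the higher of the probe's own level and the lowest level well above background. A limma p-value printed beside a bound, here and below, belongs to the fitted levels and not to the bound. Mmp27, a less studied MMP encoded near Mmp3, had levels of -5.42 and -4.93 in phorone cells and -2.41 and -1.32 in control cells, at least 6.99-fold lower (adjusted p = 0.00335). Both genes passed the rule through the control arrays alone, so they had to be lower. The membrane-type Mmp15 was dimmer, at -5.26 and -6.74 in phorone cells and -4.10 and -3.97 in control cells, at least 1.56-fold lower (adjusted p = 0.0265). Its call was lost without control replicate 1 (log2 fold change -2.03) or control replicate 2 (-1.90), with no filter on dim probes, and with normexp background correction (-0.28), and without phorone replicate 2 its value was -1.22. Under normexp, which adds a fixed offset to every signal, the fitted log2 fold changes of Mmp3 and Mmp27 shrank to -1.18 and -1.39, and both calls held.

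The gelatinase Mmp2, which cuts denatured collagen and basement membrane collagen, was bright on all 4 arrays. Its levels were 2.57 and 2.47 in phorone cells, against 4.37 and 4.72 in control cells, which is a log2 difference of -2.02 (SE 0.16; limma, adjusted p = 0.00128). Mmp14, the membrane-type MMP that activates the Mmp2 proenzyme on the cell surface, had levels of 5.43 and 5.23 in phorone cells and 6.45 and 6.14 in control cells, a log2 fold change of -0.97 (SE 0.16, adjusted p = 0.0089). Without phorone replicate 2 Mmp14 missed the threshold (-0.87), as it did under spike-in scaling (-0.53). Mmp19, a secreted MMP of many tissues, was lower by -1.85 on the log2 scale (SE 0.18), with levels of -3.03 and -2.58 in phorone cells and -0.95 and -0.96 in control cells. Smaller decreases were called for Mmp11 (stromelysin 3, a furin-activated MMP), at -0.60, and for the membrane-type Mmp16, at -0.45. The call of Mmp11 was lost without control replicate 1 (-0.67), control replicate 2 (-0.53) or phorone replicate 2 (-0.43). That of Mmp16 was lost without any of the 4 arrays, at values between -0.50 and -0.41, and both calls were lost on the spike-in scale (-0.17 and -0.020) and with dim probes kept. Mmp23 and the membrane-anchored Mmp17 were seen on all 4 arrays without being called, at log2 differences of -0.33 and 0.09 (SE 0.19 and 0.18), and Mmp23 was at 0.10 under spike-in scaling.

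The other 12 MMPs were not measured. None of the collagenases Mmp1a, Mmp8 and Mmp13 was well above background on any array, nor were Mmp7, Mmp12, Mmp20, Mmp21, Mmp24, Mmp25 and Mmp28. The gelatinase Mmp9 was below the limit on all arrays with both of its probes. Its levels were -7.10 and -6.87 (first probe) and -7.09 and -6.84 (second probe) in phorone cells, against -5.24 and -5.05, and -4.95 and -4.85, in control cells. The control arrays were the brighter ones for both probes, but no fold is given between levels that are all below the limit. The stromelysin Mmp10 was well above background on phorone replicate 2 alone, with levels of -5.59 and -4.08 in phorone cells and -7.14 and -6.38 in control cells.

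Of these 12 unmeasured MMPs, 7 lie on chromosome 9. That chromosome carries 13 of the 80 genes, 9 of them MMPs (Mmp1a, Mmp3, Mmp7, Mmp8, Mmp10, Mmp12, Mmp13, Mmp20 and Mmp27), and of these 9 only Mmp3 and Mmp27 were measured. Many genes of this cluster are known to respond to the transcription factor AP-1 through a site close to the start of the gene, and TPA, which both groups had received earlier, is a classical inducer of AP-1. RefSeq promoters (GRCm38.p6, 250 bases before to 50 after the start) were found for 50 of the 80 genes, in 55 windows. The AP-1 letters TGANTCA, searched on both strands, occurred in 12 of the 55 windows (21.8%), against 7.81% of 32851 windows of all genes. In the 11 windows of the MMP genes on chromosome 9 they occurred in 7, 1 for each of 7 of the 9 genes, and in 5 of the other 44. The antioxidant response letters TGACNNNGC, also searched on both strands and free to overlap the AP-1 letters, occurred in 8 of the 55 windows (14.5%), against 12.4% of all windows. Of the 29 windows of measured members 2 held the AP-1 letters (6.90%), as did 10 of the 26 windows of unmeasured members (38.5%). They occurred in 2 of the 20 windows of members called lower and in 0 of the 5 of members called higher. CpG dinucleotides numbered 0 to 7 in the windows of the MMP genes on chromosome 9. Their median was 19 in windows of measured members and 2 in those of unmeasured ones, against 7 over all windows. The promoters of Mmp3 and Mmp27 are shown because both genes were lower with phorone while only the promoter of Mmp3 held the AP-1 letters, in capitals at position -46 relative to the start.
Mmp3, chr9:7445572-7445871, plus strand: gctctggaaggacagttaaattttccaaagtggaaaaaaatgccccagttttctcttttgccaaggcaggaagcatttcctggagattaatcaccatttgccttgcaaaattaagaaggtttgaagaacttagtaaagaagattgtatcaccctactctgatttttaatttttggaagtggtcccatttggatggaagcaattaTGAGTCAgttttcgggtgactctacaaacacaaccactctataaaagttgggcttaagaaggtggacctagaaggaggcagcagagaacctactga
Mmp27, chr9:7571146-7571445, plus strand: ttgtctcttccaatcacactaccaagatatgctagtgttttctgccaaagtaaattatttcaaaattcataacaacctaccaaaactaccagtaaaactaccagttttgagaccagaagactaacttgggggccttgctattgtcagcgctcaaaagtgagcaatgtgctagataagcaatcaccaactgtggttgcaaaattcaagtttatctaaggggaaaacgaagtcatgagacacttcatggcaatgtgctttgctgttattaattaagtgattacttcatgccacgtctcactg

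The AP-1 letters of the other 6 genes of the cluster are shown with 20 bases on each side, all on the plus strand of chromosome 9 in GRCm38.p6, since these unmeasured genes carry the TGANTCA pattern as Mmp3 does. Those of Mmp10 and Mmp7 begin at -63, of Mmp1a at -73, of Mmp12 at -44, of Mmp13 at -35 and of Mmp20 at -95. The middle letter of the pattern was left free, and Mmp20 holds TGAATCA where Mmp3 holds TGAGTCA. A match of letters is a description and not a binding site.
Mmp10, chr9:7502259-7502305: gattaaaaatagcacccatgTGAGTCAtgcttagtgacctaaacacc
Mmp1a, chr9:7464048-7464094: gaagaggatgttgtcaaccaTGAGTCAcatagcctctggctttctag
Mmp12, chr9:7347310-7347356: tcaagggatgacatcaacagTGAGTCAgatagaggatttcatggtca
Mmp13, chr9:7272459-7272505: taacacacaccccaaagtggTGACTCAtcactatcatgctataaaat
Mmp7, chr9:7692007-7692053: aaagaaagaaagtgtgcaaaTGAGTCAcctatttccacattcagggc
Mmp20, chr9:7628116-7628162: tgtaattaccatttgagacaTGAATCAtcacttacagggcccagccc

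The TIMPs moved in both directions. Timp3, the inhibitor that binds the matrix and also blocks several ADAM and ADAMTS proteases, had levels of 3.91 and 4.36 in phorone cells, against 5.79 and 5.89 in control cells. Its log2 fold change was -1.71 (SE 0.18, limma adjusted p = 0.00267). Timp2, which both inhibits Mmp2 and helps Mmp14 to activate it, had levels of 7.12 and 6.81 in phorone cells and 7.96 and 7.88 in control cells, a log2 fold change of -0.96 (SE 0.16, adjusted p = 0.00794). Timp1 went the other way, at 4.36 and 4.36 in phorone cells and 3.69 and 3.79 in control cells, a log2 fold change of 0.62 (SE 0.12, adjusted p = 0.013). The 2 groups did not overlap for any of these 3 genes, which also held for 77.9% of all measured genes. The second Timp1 probe showed 0.46 and was not called (adjusted p = 0.0781). The call of Timp1 was lost without phorone replicate 1 (0.62) or phorone replicate 2 (0.62), and with no filter on dim probes. Under spike-in scaling neither Timp1 (1.05) nor Timp2 (-0.52) passed the threshold. Timp4 was well above background on phorone replicate 1 alone, with levels of -4.10 and -4.57 in phorone cells and -6.33 and -5.10 in control cells.

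The proteoglycanases among the ADAMTS proteases, which cut aggrecan, versican and related proteoglycans, were lower in every measured case. Adamts9 fell most of the ADAMTS genes: its levels were -3.05 and -3.23 in phorone cells, against 1.10 and 1.17 in control cells, 19.4-fold lower (log2 fold change -4.28, SE 0.13, limma adjusted p = 0.00022). This rests on 1 probe. A second Adamts9 probe was on no array, at -6.74 and -6.61 in phorone cells and -6.86 and -6.95 in control cells. Adamts4 (aggrecanase 1) had levels of -1.31 and -1.09 in phorone cells and 1.16 and 1.02 in control cells, a log2 fold change of -2.29 (SE 0.14, adjusted p = 0.000659). Adamts1, which cuts versican and aggrecan, had levels of 1.74 and 2.27 in phorone cells and 4.31 and 4.28 in control cells, also -2.29 (SE 0.20, adjusted p = 0.00161). Adamts5 (aggrecanase 2) had levels of 1.80 and 2.05 in phorone cells and 4.11 and 3.92 in control cells, -2.09 (SE 0.15, adjusted p = 0.000995). These 4 of the 7 genes listed as proteoglycanases were on all 4 arrays, each with a gap between groups wider than the gap between its replicates, and their median log2 fold change was -2.29. The remaining 3, Adamts8, Adamts15 and Adamts20, were on no array. A second, dimmer Adamts5 probe showed -1.71 (SE 0.55) and missed the threshold (adjusted p = 0.055), with phorone levels of -4.33 and -2.62 that differed widely and control levels of -1.70 and -1.84.

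Of the procollagen N-proteinases, which trim the amino end of fibrillar procollagens, Adamts2 was lower and Adamts14 was not called by its brightest probe. Adamts2 had levels of 2.55 and 2.54 in phorone cells and 4.31 and 4.15 in control cells, -1.69 on the log2 scale (SE 0.13; limma, adjusted p = 0.00103). Adamts3 was on no array. Among the other ADAMTS proteases, 5 of 9 were measured and all 5 were lower. Adamts7, which cuts the cartilage matrix protein COMP, had levels of -1.12 and -1.43 in phorone cells, against 1.57 and 1.75 in control cells, 7.66-fold lower (log2 fold change -2.94, SE 0.16, adjusted p = 0.000512). Adamts16 and Adamts10, a protease linked to fibrillin microfibrils, had log2 fold changes of -1.75 and -1.45 (SE 0.20 and 0.13). Adamts6 and Adamts12, the close relative of Adamts7 that also cuts COMP, were seen on the control arrays alone. Adamts6 had levels of -4.99 and -4.56 in phorone cells and -3.33 and -3.93 in control cells, at least 2.06-fold lower, and its call was lost without control replicate 1 (log2 fold change -0.85) or phorone replicate 1 (-0.94) and with no filter. Adamts12 had levels of -5.52 and -5.41 in phorone cells and -4.58 and -4.64 in control cells, at least 1.05-fold lower. Neither of these dim genes was called with normexp (-0.21 and -0.08) or under spike-in scaling, and Adamts10 missed the threshold under spike-in scaling (-1.01). Adamts13, Adamts17 and Adamts18 were on no array, and 1 of the 2 Adamts19 probes stood at -1.21 on phorone replicate 1 but at -6.76 on phorone replicate 2, and at -6.44 and -6.96 in control cells.

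The ADAMTS-like proteins carry the binding modules of ADAMTS proteases without the protease domain and reside in the matrix. All 4 measured genes of the 5 were lower. Adamtsl1 (punctin) had levels of -4.97 and -4.74 in phorone cells, against -1.23 and -1.72 in control cells, at least 9.17-fold lower (limma adjusted p = 0.000659). Adamtsl3 had levels of -2.19 and -1.80 in phorone cells and 1.23 and 1.02 in control cells, 8.68-fold lower (log2 fold change -3.12, SE 0.18, adjusted p = 0.000567). Adamtsl1 passed the rule through the control arrays alone and so had to be lower, while Adamtsl3 was on all 4 arrays. Adamtsl5 had levels of -3.58 and -3.28 in phorone cells and -0.89 and -0.91 in control cells, a log2 fold change of -2.53 (SE 0.15). Adamtsl4, known to bind fibrillin, was lower by -1.46 on the log2 scale (SE 0.14), with a call lost under spike-in scaling (-1.03). With normexp the values of Adamtsl1 and Adamtsl5 shrank to -1.66 and -1.60 and stayed called. Adamtsl2 was on no array.

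The ADAM genes did not share a direction. Of the 9 ADAMs listed as having a catalytic site and not as genes of testis and sperm, 7 were measured, 3 were higher and 2 lower. Adam8, a protease first known from leukocytes, had levels of 0.95 and 1.12 in phorone cells, against -0.21 and -0.61 in control cells, 2.73-fold higher (log2 fold change 1.45, SE 0.18, limma adjusted p = 0.00382). Adam17, the enzyme that releases TNF and several EGF receptor ligands, had levels of 2.85 and 2.58 in phorone cells and 2.11 and 1.84 in control cells, a log2 fold change of 0.74 (SE 0.17, adjusted p = 0.0212). Adam10, which cuts Notch receptors, was at -1.63 and -1.35 in phorone cells and -1.99 and -1.95 in control cells, a log2 fold change of 0.48 (SE 0.15, adjusted p = 0.0491). Groups did not overlap for any of these 3 genes, which also held for 77.9% of all measured genes. The gap was narrow for Adam17 and Adam10. The call of Adam17 was lost without control replicate 2 (0.60) or phorone replicate 1 (0.60), and that of Adam10 without control replicate 1 (0.46), control replicate 2 (0.50), phorone replicate 1 (0.62) or phorone replicate 2 (0.34). Both calls were lost with dim probes kept, and that of Adam10 on the spike-in scale (0.91).

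Adam19, which releases neuregulins, was the lowest of the ADAM genes by fold change. Its levels were -3.29 and -3.61 in phorone cells, against -1.13 and -0.99 in control cells, 5.23-fold lower (log2 fold change -2.39, SE 0.16, limma adjusted p = 0.000789), and it stood at -1.46 with normexp. Adam15 was lower by -0.96 on the log2 scale (SE 0.13), with levels of 2.30 and 2.20 in phorone cells and 3.15 and 3.28 in control cells, and was not called under spike-in scaling (-0.53). Adam9 was bright, at 4.93 and 5.04 in phorone cells and 4.91 and 4.67 in control cells, and was not called (0.19, SE 0.14). Adam28 was not called either (0.06, SE 0.30). Adam12 was on no array. Adam33 was well above background on 1 phorone and 1 control array, with levels of -4.76 and -5.87 in phorone cells and -4.62 and -5.44 in control cells.

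Both measured ADAMs of the 4 without a catalytic site were lower. Adam23 and Adam11, adhesion proteins known mainly from neurons, had log2 fold changes of -1.61 (SE 0.16, limma adjusted p = 0.00192) and -1.56 (SE 0.25, adjusted p = 0.00724). Adam11 fell by 0.76 on the log2 scale with normexp. Adam7 and Adam22 were on no array. Of 17 ADAMs of testis and sperm, 11 were on no array and 4 were measured, 1 of them higher and 1 lower. Adam21 had levels of -3.90 and -3.67 in phorone cells, against -4.31 and -4.41 in control cells (log2 fold change 0.57, SE 0.14, adjusted p = 0.0266). Adam1a, a subunit of the sperm protein fertilin, had levels of -3.17 and -2.81 in phorone cells, against -2.23 and -2.25 in control cells (-0.74, SE 0.16, adjusted p = 0.0186). The call of Adam21 was lost without any of the 4 arrays, at values between 0.46 and 0.69. That of Adam1a was lost without control replicate 1 (-0.73), control replicate 2 (-0.75) or phorone replicate 1 (-0.56), and both missed the threshold on the spike-in scale and with dim probes kept. Adam4 and Adam6b, seen on 3 arrays, were not called (0.39 and 0.65), and Adam6b passed the threshold without control replicate 2 (1.20). On chromosome 8, which carries 10 ADAM genes, Adam9 alone was measured.

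Several genes had more than 1 measured probe, which allowed the same gene to be read more than once. In a fit with each probe as its own feature, 57 member probes were measured, 5 higher and 41 lower, where 25.5% of 24205 gene probes were called higher and 20.3% lower. Of the 15 genes with more than 1 measured probe, 11 had all of them called, and 0 had probes of opposite sign. The matching shares over all genes were not computed. Second probes of Adam11, Adam23, Adamts14 and Adamtsl3 passed the rule through the control arrays alone and so had to be lower. Adamts7 (-2.94 and -3.11), Adam19 (-2.39 and -2.27) and Adam17 (0.74 and 0.73) gave nearly equal log2 fold changes with both probes. Mmp14 showed -0.97 and -1.73. Probes on no array do not enter these counts, and such a probe was also present for Adamts9, Adamts12, Adamts16, Adam19, Adam28, Mmp16 and Mmp17. Second probes seen on the control arrays alone gave bounds of at least 4.26-fold lower for Adamtsl3, 4.27-fold for Adam23 and 2.18-fold for Adam11, whose remaining probe, seen on 3 arrays, showed -1.65.

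**Figure D3:**
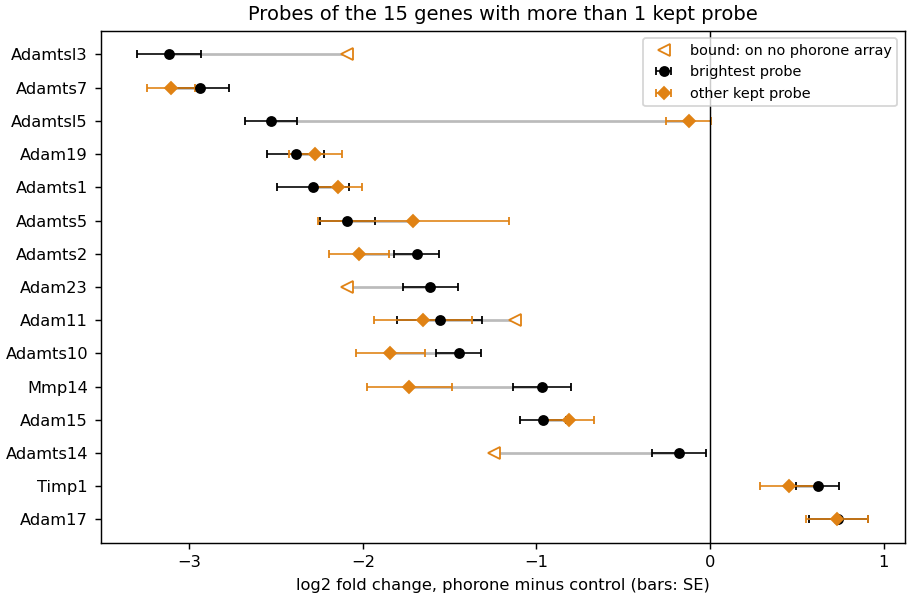
Log2 fold changes (phorone minus control, bars SE) of every measured probe of the 15 genes with more than 1, from the fit with each probe as its own feature, with open triangles at the bound for probes on no phorone array. The 2 probes of Adamtsl5 lie 2.41 apart on the log2 scale, and no gene has probes on both sides of 0.

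The brightest and the other probe gave different calls for 4 genes, Adamts5 and Timp1 as above and Adamts14 and Adamtsl5 with wider gaps. Adamts14 had levels of -1.68 and -1.46 in phorone cells and -1.51 and -1.27 in control cells with its first probe, a log2 fold change of -0.18 that was not called (limma adjusted p = 0.391). Its second probe stood at -5.72 and -5.65 in phorone cells, not well above background, against -3.50 and -3.36 in control cells, at least 2.37-fold lower (adjusted p = 0.000602). With the mean of its probes Adamts14 was called (-1.22), and with its first probe under spike-in scaling it stood at 0.26. For Adamtsl5 the first probe gave the -2.53 above, while the second had levels of -3.00 and -2.98 in phorone cells and -2.93 and -2.80 in control cells (-0.12, adjusted p = 0.458), and the mean of both probes was -1.33. The 2 probes of each gene shared at most 6 bases in a row, and they were not placed on transcripts here, so whether they read the same isoforms is not known. Their 60 bases, as printed on the array, are shown because the result turns on them. Both genes lie on chromosome 10.
Adamts14 probe 1: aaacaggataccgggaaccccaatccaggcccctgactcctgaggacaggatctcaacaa
Adamts14 probe 2: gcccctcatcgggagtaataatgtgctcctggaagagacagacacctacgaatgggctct
Adamtsl5 probe 1: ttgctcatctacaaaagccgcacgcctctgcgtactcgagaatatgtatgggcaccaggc
Adamtsl5 probe 2: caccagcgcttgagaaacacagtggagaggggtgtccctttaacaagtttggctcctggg

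The size of the changes also depended on how signals were scaled and corrected. Quantile normalisation left the counts at 5 higher and 29 lower. Scaling to the spike-in controls put the median of all genes at 0.52, raised each member by the same step, and gave 2 higher and 19 lower members, while all genes went to 2886 higher and 1208 lower. No called member changed direction under any of the 15 alternatives, but some of these could not change a direction. Other filters, adding noncoding probes, the replicate block and fitting each probe alone left a member's fitted value as it was. Of the 34 called members, 16 kept the call under all 15, 15 of them lower and 1 higher (Adam8). Where each probe was fitted alone, the brightest probe was scored. Adamtsl5 and Adamts5 are therefore among the 16, although their second probes were not called. Mmp3, Mmp27 and Adamtsl1 kept it under the 14 that give them a value, since the filter to probes on all 4 arrays removes them.

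**Figure D4:**
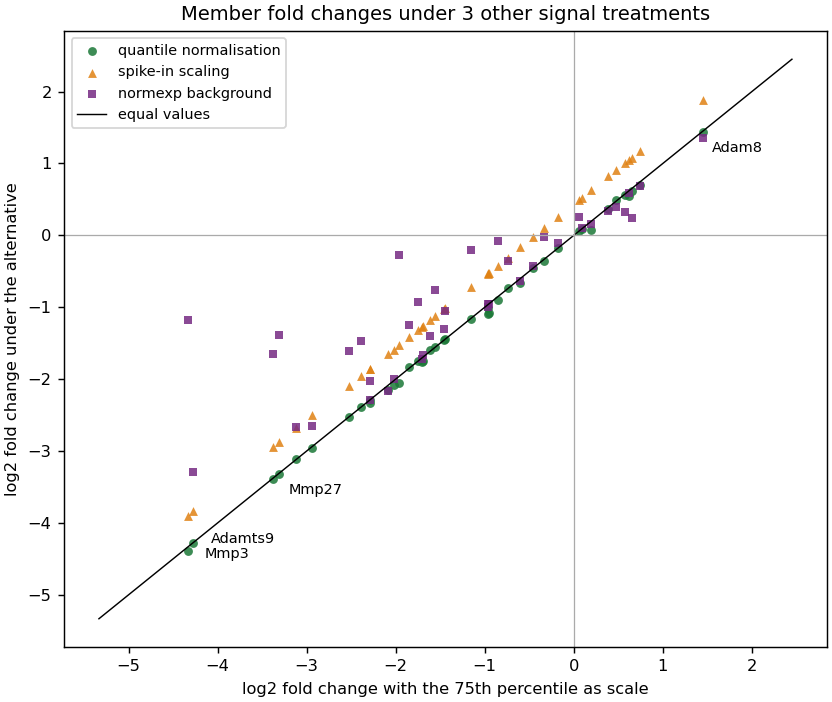
Log2 fold changes of the measured members with the 75th percentile as the scale (horizontal axis) against those under 3 other treatments of the signal (vertical axis). Quantile values lie on the line, spike-in values lie above it by a near-constant step, and normexp values of dim genes such as Mmp3 (-1.18) lie closer to 0.

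Genes that act on these proteases, or are cut by them, were listed from general knowledge. Of 26 regulators of MMP and ADAM activity, 17 were measured, with 2 higher and 10 lower (median log2 fold change -0.61). The urokinase receptor Plaur rose by 1.80 (SE 0.18), and Tspan33, a tetraspanin partner of ADAM10, was seen on the phorone arrays alone and was at least 1.87-fold higher. The other measured tetraspanins of the list did not rise. Tspan14, Tspan15 and Tspan17 were called lower (-1.09, -0.62 and -0.52) and Tspan5 was not called (-0.02). Serpine2, an inhibitor of urokinase and thrombin, had a log2 fold change of -2.63, Reck, a membrane inhibitor of MMPs, -1.68, and urokinase (Plau), unseen on the phorone arrays, was at least 1.43-fold lower. Of 20 substrates of ectodomain shedding, 17 were measured, with 2 higher, 3 lower and 12 not called (median -0.10). The EGF receptor ligands Areg and Hbegf rose by 2.21 and 0.58, and the chemokine Cx3cl1, the receptor Notch1 and App had log2 fold changes of -2.19, -1.86 and -0.72. Among matrix substrates 12 of 16 were measured, 1 higher and 9 lower (median -1.57). Col3a1 (a fibrillar collagen) and Tnc (tenascin C) had log2 fold changes of -3.38 and -3.26. Comp, the substrate of Adamts7 and Adamts12, was fitted at -3.20 and was not well above background on phorone replicate 1, while the proteoglycan Ncan, unseen on the control arrays, was at least 1.69-fold higher. Of 14 AP-1 and ETS factors, 13 were measured, with 2 higher and 6 lower (median -0.49). Fosl1, an AP-1 subunit, rose by 2.60 and Etv4 by 1.19, whereas Fos, Etv1 and Junb had log2 fold changes of -2.05, -1.39 and -1.05. The 4 lists were chosen with earlier results of these data known, and each count stands against 24.3% higher and 21.3% lower over all genes.

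Markers of the cells were read on the same arrays. Of 11 fibroblast markers, 10 were well above background on all 4 arrays and 8 were lower with phorone, Dcn (decorin) and Col3a1 showing the largest decreases at -4.52 and -3.38. The bright markers Col1a1 (-0.30), Vim (-0.36) and Fn1 (-0.08) were not called. The summed linear signal of the fibroblast markers, in multiples of the 75th percentile, was 687 and 725 in phorone cells, against 1572 and 1629 in control cells. Such a sum rests mostly on the brightest genes. S100a4, the brightest in control cells, had log2 levels of 7.37 and 7.41 in phorone cells and 9.18 and 9.21 in control cells. Of 8 macrophage and leukocyte markers, Cd68, Lyz2 and Cd14 were on all 4 arrays, with Cd68 higher (1.26) and Lyz2 lower (-1.74), while Ptprc, Adgre1, Itgam and Fcgr1 were on no array. The sum of these leukocyte markers was 5.00 and 5.04 in phorone cells and 4.15 and 4.98 in control cells, most of it from Cd14, which was not called (0.13). Of 6 epithelial markers only Krt8 was on all 4 arrays, and Cdh1, Krt18, Krt19 and Cldn4 were on none. The sum of the epithelial markers was 0.167 and 0.18 in phorone cells and 0.171 and 0.17 in control cells. Pecam1, Cdh5, Kdr and Emcn, 4 of the 5 endothelial markers, were on no array, the last (Tek) was unseen on the phorone arrays and at least 1.68-fold lower, and the sum of the 5 was 0.0399 and 0.0636 in phorone cells and 0.108 and 0.112 in control cells. Of 8 spermatid and sperm markers, Prm1 and Tnp1 were on all 4 arrays and 0 were called, with sums of 0.363 and 0.403 in phorone cells and 0.435 and 0.815 in control cells. The part of the lower fibroblast markers in the lower protease levels was not tested.

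All 4 arrays lay on 1 slide in 1 scan, with the phorone arrays in 1 row and the control arrays in another, so slide row and group cannot be told apart. Spots well above background made up 51.1% to 52.7% of an array. The signal's 75th percentile lay at 563 and 572 for phorone, against 701 and 747 for control, and 0 spots were saturated. Replicates of the measured members differed by a median of 0.28 on the log2 scale between the phorone arrays and 0.13 between the control arrays, against 0.13 and 0.20 over all measured genes. With 2 arrays a group, the number of arrays sets the precision of each value.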

How the data were processed

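Per the file headers, the intensity values that the authors deposited are those of Agilent Feature Extraction 10.7.3.1 for 1 dye (Cy3); its processed signal is background-subtracted and not normalised between arrays. The authors also deposited a table of log2 values of the same probes; a column equalled the log2 of that signal less 1 number per array (SD at most 0.0195), centred at the 75th percentile, with medians of -4.37 and -4.30 (phorone) and -4.39 and -4.35 (control). It served as an alternative.

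From the processed signal of 61307 probes, log2 values minus each array's 75th percentile were computed, after 111 probes flagged as outliers on any array were left out (0 of the members). The brightest measured probe stood for its gene. The comparison used limma 3.58.1 under R 4.3.3 (two-sided, 2 residual and 3.03 prior degrees of freedom, Benjamini-Hochberg adjustment over 17031 genes). It was also run on simulated data. These held far fewer changes than were called here and no background limit, so that run does not test the calls of dim genes. RefSeq accessions named 28128 gene probes (69.2%) and 114 of the 121 member probes; the rest carry the array's own names. The probe named Adam38 is Adam20 in RefSeq. Probe coordinates are not printed, because they refer to another build than the promoters.

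The members and lists were chosen with earlier results of these data known. Named genes followed a rule: every measured TIMP, every called member, members seen in a single group, the brightest members not called, and up to 3 called genes each way per list. Genes with probes that gave different calls, unmeasured members and marker genes were named after their values were seen. Alternatives covered scaling, background, filter, probe choice, replicate number and leaving out each array.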

Additional observations from a re-analysis of the deposited data

How the results depend on the processing

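In the alternatives that gave them a value, all 34 called members kept their direction, which some alternatives could not change, as given above. Of them 19 kept their call, 16 under all 15 alternatives and 3 under 14. The filter to all 4 arrays removes the 6 called members seen on control arrays alone. The 15 that lost the call in some were 4 higher (Timp1, Adam10, Adam17, Adam21) and 11 lower members, given above. The spike-in levels of the control arrays lay further apart than their 75th percentiles, as given above. Spike-in scaling, which rests on 7 control probes, gave 2 higher and 19 lower members, a median log2 fold change of the members of -1.01, and 4094 called genes (2886 higher, 1208 lower) in place of 7755. With no filter on dim probes there were 1 higher member, a median of -0.17 over 80 genes and 4824 called genes, since unmeasured probes enter the fit. The median was -0.95 with normexp (offset 50) and -1.35 when the probes of a gene were averaged. Leaving out 1 array gave 2 to 4 higher and 25 to 26 lower members, a median of -1.51 to -0.92, and 4368 to 7359 called genes; the lone array of a group is then assumed to vary like the other pair. Members not called changed sign as follows: Adamts14 (0.26) and Mmp23 (0.10) under spike-in scaling, and Adam28 (-0.18 and -0.31) and Mmp17 (-0.060 and -0.057) without control replicate 1 and phorone replicate 2. With 1 array left out, Adam28 ranged from -0.31 to 0.43 and Mmp17 from -0.060 to 0.24. The cause of these changes was not tested. Arrays of the same replicate number share a slide column, but their deviations did not go together (correlation across genes of -0.02 with 2 pairs), and they were not treated as pairs. With the replicate number as a block, 6998 genes, 4 higher and 27 lower members were called, without Adam10, Mmp11 and Mmp16. Dim probes limit the size of the change for genes seen in a single group.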
